A study of Homo sapiens with 24 samples.

Results

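The response of LNCaP cells to a synthetic androgen was measured in cells that had received a control siRNA (siCtrl). It rests on 6 of the 24 libraries of the series, picked by their labels alone and not by any measured value: S8, S22 and S36 from cells given R1881, and S7, S21 and S35 from cells given vehicle. LNCaP is an androgen-sensitive human prostate cancer line that arose from a lymph node metastasis, and R1881 (methyltrienolone) is a synthetic androgen. Both groups carried the same control siRNA, were kept in medium without androgen, and then received 5 nM R1881 or the ethanol in which it was dissolved for 48 h before poly(A) RNA was sequenced. The sequence of the control siRNA is not given in the sources used here, and no untransfected cells stand beside it. All libraries come from this 1 cell line, described as biological triplicates with nothing that ties them to a day or passage, so p-values measure the spread between these cultures. The other 18 libraries are cells with an siRNA against WDR77, a coregulator of androgen signalling, with the same treatments, and cells of a second study that received an empty vector (EV) or a construct labelled P3, again with both treatments.

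Androgens act on transcription through palindromic DNA elements, the androgen response elements. In the prostate gland they raise a secretory program that includes kallikrein proteases, lipid synthesis and the secretory route, and they lower a set of genes that are high after androgen withdrawal. In LNCaP cells the growth response to androgen is known to depend on dose, with proliferation at low and restraint at high concentrations.

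The 6 libraries held 16876495 to 22282684 counts. Levels are CPM, counts scaled to a common library total, over library sizes scaled by the trimmed mean of M-values (TMM), and values of single libraries are always given in the order S7, S21, S35 for vehicle and S8, S22, S36 for R1881. CPM are not divided by transcript length, so they compare a gene between libraries and not genes with each other. All 12 luminal prostate and LNCaP markers were expressed, with a summed level of 6551 to 6733 CPM in the vehicle and 21004 to 22924 CPM in the R1881 libraries. The members did not share this rise. In the test described below, 7 were called higher, 3 lower and 2 neither, beside 25.7% and 25.4% of all genes tested. Of the markers of other cell types, KRT5 and TP63 (basal), COL1A2 (fibroblast), CDH5 (endothelial), PTPRC and CD3E (immune) and INSM1 (neuroendocrine) had no count in any of the 6. Other members of these lists did have counts. Over the 6 libraries, the 4 basal markers summed to 31.8 to 51.2 CPM and the 7 fibroblast and mesenchymal markers to 11.8 to 34.4 CPM. The 3 endothelial markers summed to 4.01 to 14.2 CPM and the 5 neuroendocrine markers to 13.4 to 43.2 CPM. The 4 immune markers summed to 0.136 to 0.363 CPM with vehicle and 0 to 0.0548 CPM with R1881, and none passed the filter on low counts.

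The vehicle library S35 stood apart. Among 9631 genes that averaged 10 CPM or more, it was at least 1.5-fold below both other vehicle libraries for 165 genes and above both for 40, against at most 16 below and 14 above for any of the other 5 libraries within its group. Mitochondrially encoded genes took 8.40% of its counts (95% Wilson interval 8.39% to 8.42%, counting error only) and 5.39% to 5.85% in the other 5. KLK3, KLK2, the replication factor gene MCM10, the cytokinesis gene ANLN and the cold-sensing channel TRPM8 were among the 10 genes farthest below, and the stress cytokine GDF15, the growth factor binding protein IGFBP3, the membrane glycoprotein GPNMB and the mitochondrial ribosomal RNA MT-RNR2 among the 10 farthest above. GDF15, for example, measured 162, 180.4 and 380.1 CPM with vehicle and 839, 889.8 and 915 CPM with R1881, so that S35 was the vehicle library nearest to the R1881 libraries. Counts and sizes were therefore also computed without S35. The second value is given beside the first where the counts of a list or the call of a gene differed. It is also given where a fold moved by more than 1.5 times. Since S35 was left out for its deviating values, calls and adjusted p-values without it are descriptions. They are not independent support for genes in which S35 stood apart.

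Of 17893 genes tested, 9143 (51.1%) were called, which here and below means a Benjamini-Hochberg adjusted p under 0.05 in edgeR's quasi-likelihood test over all genes. R1881 raised 4601 (25.7%) and lowered 4542 (25.4%), and the median log2 change of all genes was -0.045 (a log2 change of 1 is a 2-fold change). Changes of at least 2-fold were less even, with 1235 genes higher (6.9%) and 1873 lower (10.5%). At least 8-fold changes, a log2 change of 3 or more, were about equally frequent, with 229 higher and 244 lower. Counted at any size of change, protein-coding genes leaned to the higher side, with 4105 higher and 3547 lower of 13094 tested. At 2-fold or more they leaned to the lower side, with 903 higher and 1246 lower. Long noncoding genes leaned to the lower side in both counts, with 304 higher and 685 lower of 3086, and 191 and 435 at 2-fold or more. The classes were counted with TMM scaling only. The vehicle and R1881 libraries did not overlap at all for 10367 genes (57.9%). Without S35, 4447 genes (24.1%) were higher and 4409 (23.9%) lower of 18444 tested. In all, 8237 genes were called in the same direction with and without it, 906 only with it, 542 tested both ways only without it, and no gene in opposite directions. The TMM factors were 0.901 to 0.932 in the R1881 and 1.07 to 1.12 in the vehicle libraries, so with no scaling factors the median shifted to -0.31 and the split to 2669 higher and 7810 lower. In bulk RNA such as this, fewer cells of a kind and less RNA per cell cannot be told apart.

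**Figure D1:**
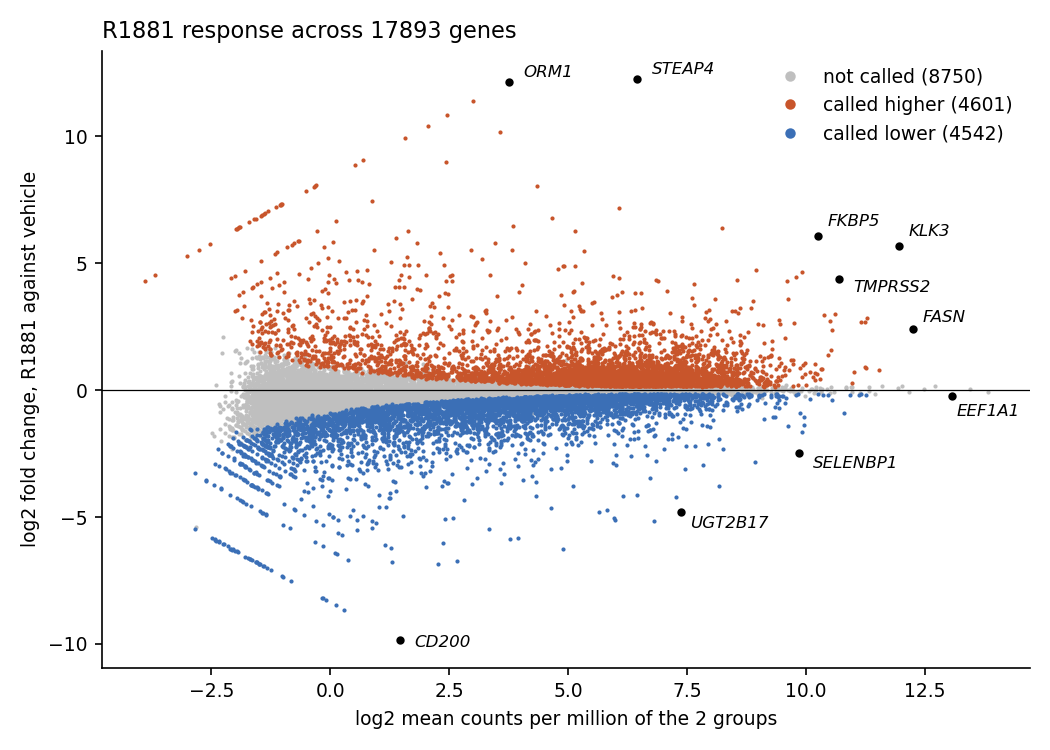
Each point is 1 of the 17893 genes tested, with the log2 of its mean CPM over the 2 groups on the x axis and the log2 fold change of R1881 against vehicle on the y axis. Orange points were called higher (4601), blue lower (4542) and grey not called. The cloud is centred close to 0, with tails of large changes on both sides at low and middle levels and few large changes among the most abundant genes apart from named ones such as KLK3, TMPRSS2, FKBP5 and FASN.

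The kallikreins of the prostate were read first. KLK3 (chr19:50854915-50860764, plus strand, GRCh38, GENCODE 29) encodes prostate-specific antigen, a protease that liquefies the seminal clot. Its level was 203, 204 and 52.6 CPM with vehicle and 7655, 8007 and 7836 CPM with R1881. All R1881 libraries lay close together and far above the vehicle libraries, while S35 lay well below the other vehicle libraries. The log2 change was 5.67 ± 0.54 (SE, adjusted p = 2.36e-05), a 51-fold rise, and 5.26 ± 0.30 or 38.2-fold without S35. In the R1881 libraries this 1 gene took 0.705% to 0.729% of all counts. KLK2, the neighbouring gene for a related protease that activates the KLK3 product, measured 10.1, 9.04 and 2.31 CPM with vehicle and 599, 611 and 592 CPM with R1881. Its change was 6.38 ± 0.38 (adjusted p = 7.67e-07), and 5.96 ± 0.17 without S35, and S35 was again the lowest library. The 2 genes are similar in sequence, and how reads that fit both were counted is not given.

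The 250 bases before the start of each of these 2 genes are shown because both hold the same close match to an androgen response element. They are RefSeq sequences (GRCh38.p14, plus strand), chr19:50854665-50854914 for KLK3 and chr19:50873189-50873438 for KLK2. RefSeq begins KLK2 further downstream than the GENCODE 29 gene record (chr19:50861568-50880567, plus strand), which spans upstream exons. Capitals mark the match.
KLK3: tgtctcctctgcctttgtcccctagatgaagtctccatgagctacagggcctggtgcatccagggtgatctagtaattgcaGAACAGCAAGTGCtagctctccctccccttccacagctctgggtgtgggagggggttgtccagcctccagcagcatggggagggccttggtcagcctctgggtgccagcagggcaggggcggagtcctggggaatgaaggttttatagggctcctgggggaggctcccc
KLK2: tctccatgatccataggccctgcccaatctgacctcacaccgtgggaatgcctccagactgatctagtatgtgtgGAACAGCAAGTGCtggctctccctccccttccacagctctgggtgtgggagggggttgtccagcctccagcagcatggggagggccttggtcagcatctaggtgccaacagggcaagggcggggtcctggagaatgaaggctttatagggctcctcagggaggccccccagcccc
The motif searched is the pair of arms GNACA and TGTNC with 3 bases between them (N is any base, both strands), and, with 1 base of an arm left free, GNACA and NGTNC with the same spacing. Both promoters carry GAACAGCAAGTGC, a match of the second form, 169 to 157 bases before the KLK3 start and 175 to 163 before that of KLK2. The second form was present in 634 of 35116 (1.80%) of all RefSeq promoter windows of this length and the first in 115 of 35116 (0.328%). Among promoters of genes that rose at least 4-fold the second form was found in 12 of 400 (3.00%), against 108 of 6807 (1.59%) for genes not called and 10 of 544 (1.84%) for genes that fell at least 4-fold. Promoter entries were matched by symbol for 11376 of the 17893 genes. A match of letters is a description of the sequence and says nothing about binding in these cells.

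The whole list of secreted kallikreins and prostate secretory proteins moved with hormone. Of 16 genes 13 were tested, of which 12 were called higher, beside 25.7% of all genes, and 1 lower, with a median log2 change of 4.36 against -0.045 for all genes, and the same counts without S35. MSMB, NPY and TGM4 had too few counts to test. Here and below, the lists were chosen with earlier results of these data known, so their counts describe the members and are not independent support. For each list of the response, the shares of all genes are 25.7% higher and 25.4% lower, and 24.1% and 23.9% without S35. TMPRSS2, a membrane serine protease whose promoter is the one most often fused to ETS factors in prostate cancer, went from 171, 166 and 127 CPM to 2829, 3295 and 3407 CPM, a change of 4.36 ± 0.13. SLC45A3, the transporter-like protein prostein, went from 78.9, 75.1 and 65 CPM to 1561, 1975 and 2037 CPM (4.67 ± 0.11). S35 was the lowest vehicle library for both, and every vehicle library was far below every R1881 library. SPDEF, an ETS factor of secretory epithelia, rose by 3.13 ± 0.076, and AZGP1, a secreted zinc-binding glycoprotein, by 4.28 ± 0.10. The exception was PLA2G2A, a secreted phospholipase, which measured 139, 131 and 137 CPM with vehicle and 7.44, 7.29 and 7.60 CPM with R1881. It fell by a factor of 18.2 (-4.19 ± 0.10, adjusted p = 3.63e-21), with the groups far apart and S35 level with the other vehicle libraries.

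FKBP5, an immunophilin cochaperone of steroid receptors that the glucocorticoid and progesterone receptors also induce, rose most of the targets shared with other steroids. It measured 39.2, 42.4 and 26.6 CPM with vehicle and 2156, 2490.4 and 2573 CPM with R1881, a change of 6.06 ± 0.18 (66.7-fold, adjusted p = 5.73e-10) and 5.88 ± 0.095 without S35. NDRG1, a differentiation and stress gene, went from 69.5, 75.5 and 82.3 CPM to 1317, 1530.4 and 1571 CPM (4.28 ± 0.077), and ZBTB16, a zinc finger repressor, from 95.7, 88.7 and 69.4 CPM to 305, 297 and 313 CPM (1.85 ± 0.085). In neither did the groups overlap. Of the 16 chaperones and corticoid-shared targets, 11 were called higher and none lower (median 0.44), but with no scaling factors 8 were higher and 4 lower. The members not called were the chaperones and cochaperones HSP90AA1, HSP90AB1, FKBP4 and BAG1 and the corticoid target KLF9. HSP90AB1, the main constitutive HSP90, measured 1819.7, 1908 and 1653 CPM with vehicle and 1862, 1883 and 1913 CPM with R1881, with the groups overlapping.

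Lineage and coregulator genes changed in both directions. Of 19 lineage factors and coregulators tested (20 in the list), 10 were called higher and 7 lower (9 and 8 without S35), a balance that turned to 5 higher and 9 lower with no scaling factors. GRHL2, a grainyhead factor of epithelial cells, went from 223, 220.1 and 253 CPM to 469.5, 448 and 449 CPM (0.97 ± 0.062). All 3 p160 coactivators fell, with log2 changes of -0.85 ± 0.067 for NCOA3, -0.70 ± 0.055 for NCOA2 and -0.32 ± 0.062 for NCOA1. GATA2, a zinc finger pioneer factor, also fell (-0.64 ± 0.092). WDR77, the coregulator the series is about, was 41.7, 46.7 and 46.6 CPM with vehicle and 63.8, 67.3 and 66.1 CPM with R1881. Its rise, 0.55 ± 0.085 (adjusted p = 7.10e-06), was small, and every R1881 library was above every vehicle library.

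**Figure D2:**
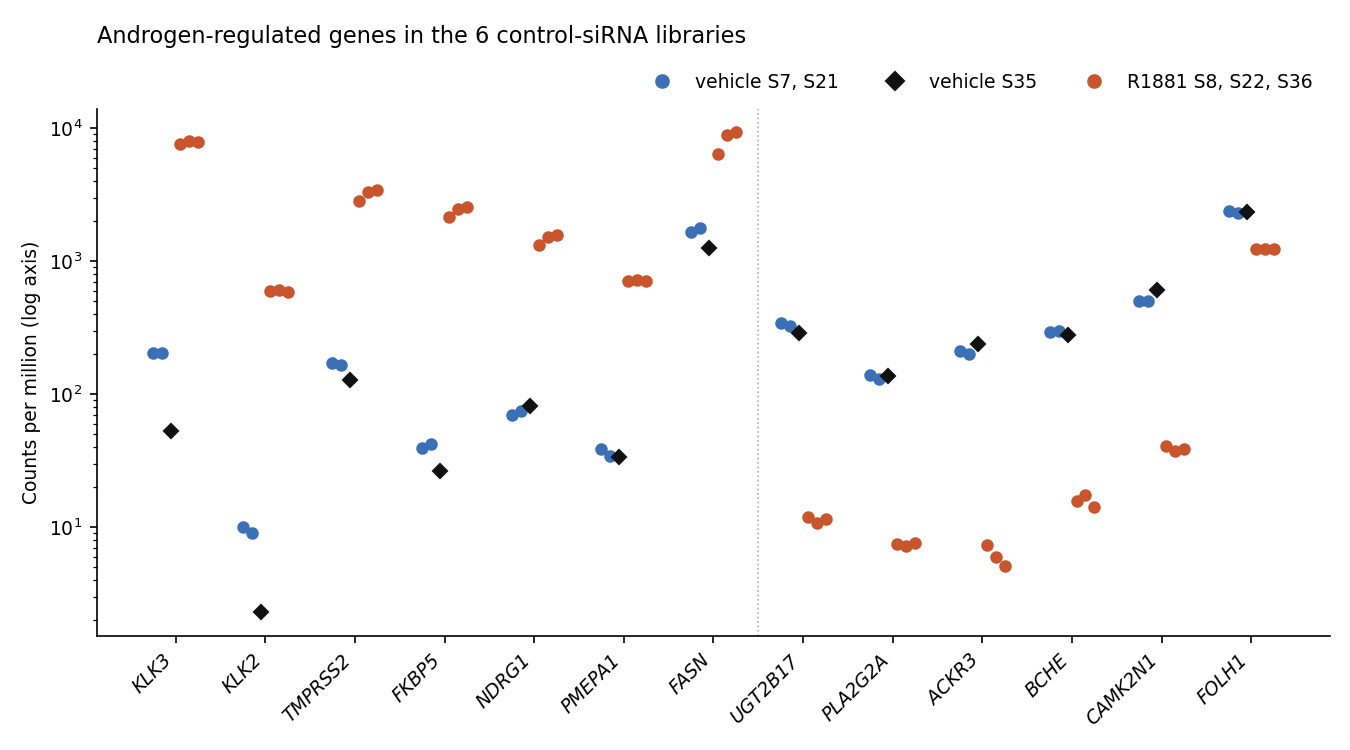
CPM on a log axis for 13 androgen-regulated genes in the 6 siCtrl libraries: blue circles are vehicle S7 and S21, black diamonds vehicle S35 and orange circles the R1881 libraries. The 7 genes left of the dotted line were higher with R1881 and the 6 on the right lower, the groups overlap for none of them, and S35 is set off from the other vehicle libraries for KLK3 and KLK2.

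Of 16 genes tested in a list of 18 known androgen-repressed genes, 14 were called lower (15 without S35), beside 25.4% of all genes. With all libraries 1 was called higher, and the median was -2.6. This list, too, was chosen with earlier results of these data known. UGT2B17, an enzyme that inactivates androgens by attaching glucuronic acid, measured 344, 327 and 291 CPM with vehicle and 11.9, 10.8 and 11.6 CPM with R1881. The fall was 28.1-fold (-4.81 ± 0.078, adjusted p = 9.43e-24). ACKR3, an atypical chemokine receptor that scavenges CXCL12, went from 212, 201 and 239 CPM to 7.32, 6.03 and 5.08 CPM (-5.15 ± 0.10). OPRK1, the kappa opioid receptor, went from 125, 119 and 123 CPM to 4.33, 2.68 and 4.17 CPM (-5.04 ± 0.13). BCHE, butyrylcholinesterase, went from 295, 299 and 279.6 CPM to 15.9, 17.6 and 14.1 CPM (-4.2 ± 0.077). For these 4 genes the groups lay far apart, with S35 close to the other vehicle libraries. FOLH1, which encodes prostate-specific membrane antigen, went from 2384, 2297 and 2351 CPM to 1246, 1243 and 1247 CPM (-0.91 ± 0.053). The 1 member called higher was SLC7A11, the cystine transporter, from 87.8, 82.5 and 96.7 CPM to 212, 136 and 129 CPM, in which library S8 stood above the other R1881 libraries. BRCA1, the homologous recombination gene, was not called with all libraries (-0.90 ± 0.36, adjusted p = 0.0673) and was called lower without S35 (-1.25 ± 0.15, adjusted p = 1.00e-06).

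Genes of steroid metabolism and androgen inactivation, read as 1 list, did not move as a group. Of 15 steroid metabolism genes tested of 22, 7 were called higher and 6 lower (the same numbers of 16 tested without S35), and 5 higher and 7 lower with no scaling factors. Within the UGT2B cluster the members went opposite ways. UGT2B15 (chr4:68646630-68670628, minus strand) measured 67.3, 64.5 and 45 CPM with vehicle and 0.891, 0.877 and 0.535 CPM with R1881, a 76.9-fold fall (-6.27 ± 0.23). UGT2B28 (chr4:69280499-69295050, plus strand) measured 0.282, 0.546 and 0.181 CPM with vehicle and 8.72, 11.1 and 10.5 CPM with R1881, a 30.2-fold rise (4.92 ± 0.24), and UGT2B11 (chr4:69199951-69214731, minus strand) went from 1.97, 1.44 and 0.950 CPM to 11.3, 10.7 and 12.5 CPM (2.96 ± 0.20). The groups overlapped for none of these, nor for UGT2B17. These genes are close copies of each other and the treatment of reads with several alignments is not given, so counts may have been shared among them. AKR1C3, which makes active androgens from precursors, fell from 2.06, 1.94 and 3.03 CPM to 0.254, 0.822 and 0.0535 CPM (-2.61 ± 0.48).

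The largest changes by ratio were of genes that were silent or nearly so without hormone. For a group with no count, the fold was set against 3 counts over the group and is a lower bound. STEAP4 (chr7:88270892-88306891, minus strand), a metalloreductase of iron and copper, had 2 counts over the 3 vehicle libraries and 9402 over the R1881 libraries, a ratio of 5985 (95% exact interval 1656 to 49427). The R1881 libraries held 127, 195 and 206 CPM of it, with S8 lowest. Its relatives changed far less. STEAP1, chosen after its values were seen, rose by 0.25 ± 0.059, and STEAP2 fell from 1674, 1646 and 1767 CPM to 1330.4, 1264 and 1327 CPM (-0.38 ± 0.058). CCDC141, a coiled-coil protein, was at 0 in every vehicle library and at 15.1, 17.1 and 16.1 CPM with R1881, at least 361-fold higher. SLC2A3, the high-affinity glucose transporter GLUT3, also went from 0 to 8.91, 10.8 and 13.3 CPM, at least 249-fold higher. The amino acid transporter SLC38A4 went from 0 to 5.03, 6.96 and 5.88 CPM (at least 134-fold) and the chloride-bicarbonate exchanger SLC26A3 from 0 to 3.44, 2.85 and 2.25 CPM (at least 62.8-fold). PGC, the pepsinogen progastricsin, which is also secreted by the prostate, went from 0.201, 0.199 and 0.0452 CPM to 45.7, 39.3 and 36.9 CPM (8.03 ± 0.23).

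Several of these neighbour each other on the genome. ORM1 and ORM2, which encode the acute-phase plasma protein orosomucoid, lie side by side at chr9:114323056-114326475, plus strand, and chr9:114329869-114333252, plus strand. ORM1 had no vehicle count and 23.2, 27.6 and 30.4 CPM with R1881, at least 609.8-fold higher. ORM2 had 1 vehicle count, and a ratio of 1612 (95% exact interval 289 to 63711). The sequences of these 2 are nearly the same and their counts may be shared. SMIM41 (chr12:52079696-52108239, plus strand), the pseudogene OR7E47P inside it and the noncoding RNA RP1-288H2.2 on the opposite strand (chr12:52092485-52104297, minus strand) overlap on chromosome 12, and without the strand setting of the counting their reads cannot be told apart. TRIM53AP and TRIM49D2, members of a multigene family on chromosome 11, both had no vehicle count. They were at least 72.6-fold and 35.2-fold higher.

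Of the 15 largest falls by ratio, 7 were of genes with no count left in any R1881 library. CD200, an immunoglobulin-family ligand that restrains myeloid cells, had 6.77, 5.86 and 3.98 CPM with vehicle and none with R1881, at least 97.9-fold lower. IL1B, the cytokine interleukin-1 beta, went from 1.61, 1.94 and 2.94 CPM to 0 (at least 37.7-fold), and KCNK3, a background potassium channel, from 2.26, 1.59 and 1.45 CPM to 0 (at least 31.4-fold). The lens membrane protein gene LIM2 and the noncoding RNA LINC01322 were also at 0 in all R1881 libraries. PCDH11X, a protocadherin, went from 9.83, 10.4 and 8.33 CPM to 0.0636, 0.164 and 0 CPM (-6.86 ± 0.40). CCDC80, a matrix-associated protein, kept 1 count in each R1881 library, 3 in all, and fell by a ratio of 83.3 (95% exact interval 28.2 to 406). DAB1, the adaptor of reelin signalling, had 2 counts left, both in S8, and a ratio of 128 (95% exact interval 35.1 to 1058).

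Genes were also ranked by the difference in mean CPM rather than by ratio, which favours abundant genes. After KLK3 the largest gains in CPM were those of FASN, fatty acid synthase (1648, 1782 and 1262 CPM with vehicle and 6390.2, 8968 and 9298 CPM with R1881), KRT8, a keratin of simple epithelia (589, 622 and 649 CPM with vehicle and 3994, 4549 and 4665 CPM with R1881), and ABHD2, a serine hydrolase of lipids (635, 637 and 686 CPM with vehicle and 3941, 4267 and 4454 CPM with R1881). S8 was the lowest R1881 library for FASN, and still above each vehicle library. NCAPD3, a condensin II subunit, went from 86, 89.7 and 54.2 CPM to 1395, 1793 and 1881.1 CPM (4.46 ± 0.22), against the direction of most mitotic genes described further on. The largest losses were of SELENBP1, a selenium-binding methanethiol oxidase, which went from 1524, 1497 and 1679.5 CPM to 288, 281 and 271 CPM (-2.49 ± 0.070), and EEF1A1, the abundant elongation factor, whose change was only -0.21 ± 0.065 and which rested on its high level. GRB10, an adaptor that restrains insulin and IGF receptors, fell from 846, 814 and 903 CPM to 126, 124 and 113 CPM (-2.82 ± 0.066). CAMK2N1, an inhibitor of calmodulin kinase, fell from 503, 499 and 611 CPM to 41.1, 37.7 and 39 CPM (-3.78 ± 0.14), CALD1, the actin-binding protein caldesmon, fell from 1595, 1632 and 1073 CPM to 597, 532 and 537 CPM with S35 the lowest vehicle library, and FN1, fibronectin, fell from 1369, 1245 and 1403 CPM to 803, 568 and 577 CPM.

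Lipid synthesis rose broadly. Of 26 cholesterol synthesis and uptake genes tested, 24 were called higher and 1 lower, beside 25.7% and 25.4% of all genes. The median of the list was 1.03, and the counts were the same without S35. HMGCS1, which makes HMG-CoA, went from 76.1, 74.1 and 66.2 CPM to 292, 302 and 306 CPM (2.06 ± 0.067), and FDFT1, squalene synthase, from 161, 161 and 148 CPM to 417, 506 and 509.7 CPM (1.61 ± 0.069). No vehicle library reached an R1881 library for either. The member that fell was INSIG2, which holds the SREBP activation complex in the endoplasmic reticulum, from 57, 57 and 68.6 CPM to 17.8, 19.6 and 21 CPM (-1.64 ± 0.087), and the member not called was HSD17B7. Of 25 fatty acid synthesis and storage genes, 16 were higher and 6 lower (median 0.74). The elongase ELOVL5 rose by 2.96 ± 0.062, ELOVL7 by 3.89 ± 0.087 and the acyl-CoA synthetase ACSL3 by 3.6 ± 0.083. ELOVL7 went from 18.9, 17.8 and 14.3 CPM to 229, 259.7 and 269.5 CPM. The 6 that fell were ACACB, the carboxylase isoform at mitochondria (-1.14 ± 0.12), the elongase ELOVL6 (-1.33 ± 0.12), the triglyceride enzymes DGAT2 (-0.81 ± 0.089), GPAM (-0.59 ± 0.069) and AGPAT2 (-0.47 ± 0.10), and the carbohydrate-response factor MLXIPL (-1.85 ± 0.33). Fatty acid oxidation was split, with 7 of 17 higher and 7 lower (6 and 9 with no scaling factors). AMACR, the racemase used as a marker of prostate cancer, went from 22.9, 27.4 and 24.6 CPM to 121, 152 and 146 CPM (2.49 ± 0.087), while both subunits of the mitochondrial trifunctional protein fell, HADHA (-0.37 ± 0.060) and HADHB (-0.43 ± 0.055).

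The secretory route moved almost as a block. Of 32 genes of ER translocation, coat complexes and Golgi transport, 31 were called higher and none lower (median 0.94), beside 25.7% and 25.4% of all genes. Only TRAPPC1, a tethering subunit, was not called (0.044 ± 0.063). SEC11C, a signal peptidase subunit, measured 58.5, 60.1 and 65.2 CPM with vehicle and 278, 269.5 and 265 CPM with R1881. It rose 4.42-fold (2.15 ± 0.058), with the groups well apart. SEC24D, which loads cargo into COPII vesicles, went from 23.5, 25.5 and 28 CPM to 145, 141 and 149 CPM (2.5 ± 0.070), and KDELR2, which returns escaped ER proteins, from 152, 156 and 142 CPM to 419, 404 and 416 CPM (1.46 ± 0.058). Of 27 glycosylation enzymes, 25 were higher and 2 lower (median 1.08), and 24 and 2 without S35. UAP1, which makes the sugar donor UDP-GlcNAc, went from 79.9, 74.1 and 73.9 CPM to 679, 720.5 and 727 CPM (3.22 ± 0.065). ST6GALNAC1, which adds sialic acid to form the sialyl-Tn antigen, went from 1.45, 2.19 and 2.31 CPM to 56.7, 61.6 and 54.5 CPM (4.87 ± 0.12). The 2 that fell were GALNT3, an initiating enzyme of mucin-type glycans (134, 131 and 131 CPM with vehicle and 34, 32.5 and 39 CPM with R1881), and ST3GAL1, a sialyltransferase (872, 868 and 918 CPM with vehicle and 429, 425 and 434 CPM with R1881). In both, the vehicle and R1881 libraries formed 2 tight groups.

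Of 28 genes that respond to unfolded proteins in the ER or to lack of amino acids, 24 were called higher and 1 lower (median 0.91). The shares of all genes were 25.7% and 25.4%. DNAJB9, an ER cochaperone, went from 12.8, 12.1 and 15.1 CPM to 76, 81.7 and 76.8 CPM (2.55 ± 0.081). ERN1, the IRE1 sensor, went from 40.5, 38.7 and 50.9 CPM to 201, 199.7 and 202 CPM (2.21 ± 0.080), and HERPUD1, a component of ER-associated degradation, from 99.1, 105 and 119 CPM to 313, 338 and 337 CPM (1.61 ± 0.064). For these 3 genes the groups were apart. The members not called were DDIT3 (-0.036 ± 0.16), the factor CHOP of prolonged stress, DDIT4 (0.042 ± 0.073), an mTOR inhibitor, and ASNS (0.24 ± 0.13), asparagine synthetase, and the member called lower was SESN2, a stress sensor (-0.48 ± 0.078). DDIT3 measured 11.1, 12.5 and 19.4 CPM with vehicle and 13, 15.5 and 13.4 CPM with R1881, with S35 above every other library. The promoter of HSPA5, the ER chaperone BiP, is shown as the best-known carrier of the ER stress element, CCAAT and CCACG with 9 bases between them (both strands), which was found in 8 of 39 (20.5%) of the promoters of this list and in 26 of 35116 (0.0740%) of all. It is RefSeq GRCh38.p14, chr9:125241344-125241593, read 5′ to 3′ on the minus strand, with the match in capitals 66 to 48 bases before the start.
HSPA5: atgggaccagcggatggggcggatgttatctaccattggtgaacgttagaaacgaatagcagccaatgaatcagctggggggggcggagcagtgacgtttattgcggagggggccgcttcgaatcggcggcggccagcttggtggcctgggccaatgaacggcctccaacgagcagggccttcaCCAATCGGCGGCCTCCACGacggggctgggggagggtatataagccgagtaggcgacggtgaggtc
HSPA5 itself, chosen after its values were seen, went from 677, 727 and 544 CPM to 1325, 1376 and 1428 CPM (1.08 ± 0.075). S35 was the lowest library, and the groups did not overlap.

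Amino acid and polyamine genes were called in both directions. Of 20 aminoacyl-tRNA synthetases, 16 were higher and 1 lower (median 0.40), and 10 higher and 4 lower with no scaling factors. TARS1 went from 201, 202 and 203 CPM to 384, 383 and 379.8 CPM (0.92 ± 0.051) and MARS1 from 149, 155 and 155 CPM to 286, 254 and 261 CPM (0.80 ± 0.064), while LARS1 fell (-0.19 ± 0.054). Among 20 amino acid transporters, 12 were higher and 6 lower (13 and 6 without S35), beside 25.7% and 25.4% of all genes. SLC1A5, the glutamine transporter ASCT2, went from 71.2, 76.1 and 70.7 CPM to 259, 234 and 235 CPM (1.74 ± 0.073), and SLC7A5, which exchanges glutamine for leucine, fell from 9.15, 9.69 and 8.42 CPM to 6.30, 5.15 and 5.19 CPM (-0.71 ± 0.15). SLC3A2, the heavy chain partner of both SLC7A5 and SLC7A11, was not called with all libraries and rose without S35 (0.43 ± 0.069), a library in which its level was as high as in any R1881 library. It measured 211, 232 and 328 CPM with vehicle and 326, 294 and 279 CPM with R1881. Polyamines are made in large amounts by the prostate. SMS, spermine synthase, went from 87.5, 96.4 and 84.7 CPM to 772, 864 and 863 CPM (3.22 ± 0.069), AMD1, which makes the aminopropyl donor, from 773, 738 and 714 CPM to 2090.4, 2245 and 2341 CPM (1.59 ± 0.061), and ODC1, the rate-limiting decarboxylase, from 392, 445 and 319 CPM to 2333, 2662 and 2598 CPM (2.72 ± 0.10). GNMT, which uses up methyl groups on glycine, rose 21.1-fold, from 6.00, 6.06 and 6.20 CPM to 113, 139 and 134 CPM. In the combined list of polyamine and one-carbon genes, 12 of 21 were higher and 3 lower, 13 and 3 without S35, and 9 and 5 with no scaling factors.

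Of 26 genes of glucose uptake, glycolysis and hypoxia, 15 were higher and 7 lower, a lean that was lost with no scaling factors (9 and 9). Beside this and the next 3 lists, the shares of all genes were 25.7% higher and 25.4% lower. HK1, a hexokinase, went from 165, 167 and 162 CPM to 493, 471 and 452 CPM (1.52 ± 0.057), HK2 from 17.9, 19.5 and 18.6 CPM to 60.7, 70.6 and 74.3 CPM (1.88 ± 0.085) and PFKFB2, which raises flux through phosphofructokinase, from 49.3, 48.3 and 52.8 CPM to 197, 217 and 214 CPM (2.06 ± 0.070). PKM, pyruvate kinase, fell slightly (-0.34 ± 0.058), as did GAPDH (-0.20 ± 0.065), often used as a reference gene, with 1447, 1485 and 1274 CPM with vehicle and 1184, 1246 and 1239.6 CPM with R1881. EGLN3, an oxygen-sensing hydroxylase, fell from 28.2, 26.7 and 47.8 CPM to 3.37, 4.77 and 4.92 CPM (-2.96 ± 0.28). Among 18 genes of citrate, zinc and mitochondrial metabolism tested of 20, 9 were higher and 2 lower, which reversed to 3 and 5 with no scaling factors. ANKH, which exports pyrophosphate and citrate, went from 108, 107 and 119.8 CPM to 540.0, 568 and 579 CPM (2.33 ± 0.063). Of the nuclear subunits of complexes I and IV, 4 of 20 were higher and 3 lower, both below the shares of all genes. With no scaling factors 1 was higher and 13 lower. Autophagy and lysosome genes had 14 of 22 higher and 3 lower, but 3 and 7 with no scaling factors. WIPI1, an early autophagosome protein, went from 8.70, 7.25 and 8.73 CPM to 66.2, 70.6 and 79 CPM (3.12 ± 0.10), a rise under either scaling.

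**Figure D3:**
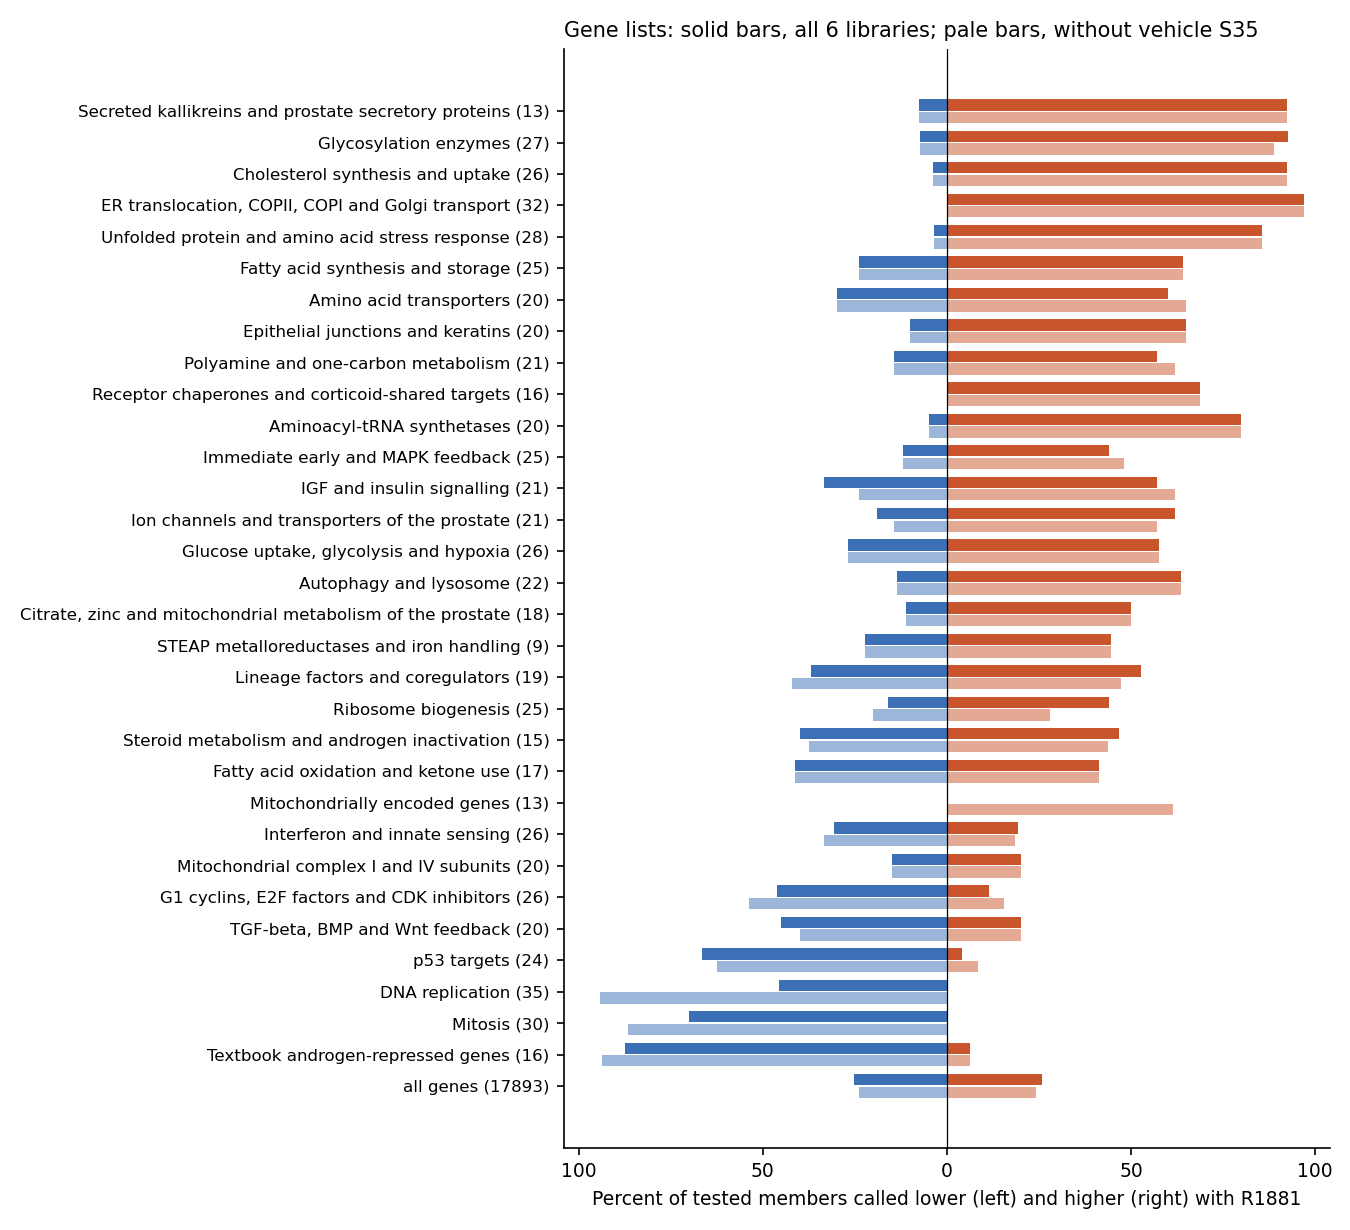
Percent of the tested members of each gene list called lower (blue, to the left) and higher (orange, to the right) with R1881, ordered by the median log2 change, with all genes for comparison at the bottom and the number tested in parentheses; solid bars use all 6 libraries and pale bars leave out vehicle S35. Secretory proteins, ER and Golgi transport, glycosylation, cholesterol synthesis and the unfolded protein response lie far to the higher side in both, and replication, mitosis and the mitochondrially encoded genes change most when S35 is left out.

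Signalling genes changed one by one. PMEPA1, which restrains TGF-beta signalling, went from 39.1, 34.6 and 33.6 CPM to 706, 729.6 and 706 CPM (4.32 ± 0.072, adjusted p = 9.43e-24), the smallest adjusted p in its list, whose 20 tested members, PMEPA1 included, split into 4 higher and 9 lower (4 and 8 without S35). Of the type I BMP receptors, BMPR1A rose from 35.3, 32.5 and 35 CPM to 156, 152 and 152 CPM (2.16 ± 0.061) and BMPR1B from 40.4, 40.5 and 29.7 CPM to 171, 201 and 206 CPM (2.38 ± 0.13). LEF1, a Wnt-responsive factor, fell from 5.32, 3.68 and 8.42 CPM to 1.97, 1.92 and 1.55 CPM (-1.68 ± 0.26). IGF1R, the IGF-1 receptor, measured 31.7, 26.7 and 28 CPM with vehicle and 372, 352 and 356 CPM with R1881. It rose 12.5-fold (3.64 ± 0.072) with no overlap. IRS2, its adaptor, went from 5.60, 7.15 and 7.06 CPM to 27.7, 34.5 and 37 CPM (2.33 ± 0.13), and INPP4B, a phosphoinositide phosphatase that opposes AKT, from 5.08, 5.86 and 5.20 CPM to 48.7, 56.9 and 59.9 CPM (3.36 ± 0.20). DEPTOR, an mTOR inhibitor, fell from 18.5, 21.4 and 12.2 CPM to 3.44, 4.49 and 5.40 CPM (-1.95 ± 0.22), and PIK3R1, the regulatory subunit of PI3-kinase, from 222, 225 and 205 CPM to 141, 131 and 137 CPM (-0.68 ± 0.066). In all 12 of 21 IGF and insulin genes were higher and 7 lower, 13 and 5 without S35, and 7 and 7 with no scaling factors. IGFBP3, which binds IGF, was called lower with all libraries (-1.42 ± 0.45, adjusted p = 0.0271) and not without S35 (-1.02 ± 0.44, adjusted p = 0.0946). It measured 116, 102 and 217 CPM with vehicle and 90.2, 39.6 and 33.7 CPM with R1881, and S35 and S8 were each the highest of their group. Of 25 immediate early and MAPK feedback genes, 11 were higher and 3 lower (12 and 3 without S35, 10 and 5 with no scaling factors), with NR4A1, an orphan nuclear receptor, at 8.74, 7.75 and 7.56 CPM with vehicle and 50, 73.8 and 83.1 CPM with R1881 (3.1 ± 0.17). JUN (-0.013 ± 0.073) and FOS (0.019 ± 0.53, and 1.1 ± 0.51 without S35) were not called with or without S35.

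Of epithelial junction and keratin genes, 13 of 20 were higher and 2 lower, beside 25.7% and 25.4% of all genes, and 10 and 6 with no scaling factors. KRT18, the partner of KRT8, went from 224, 242 and 239 CPM to 1362, 1526 and 1548 CPM (2.65 ± 0.063), while OCLN, the tight junction protein occludin, fell from 139, 130.0 and 132 CPM to 44.5, 43.5 and 44.8 CPM (-1.59 ± 0.064). The basal keratin KRT14 rose from 1.01, 0.993 and 0.226 CPM to 8.52, 5.86 and 9.79 CPM (3.43 ± 0.31), with KRT5 and TP63 at 0 in all 6 libraries. COL3A1, a fibrillar collagen, fell from 8.14, 7.20 and 5.70 CPM to 0.827, 0.712 and 0.481 CPM (-3.39 ± 0.24), and ENO2, the neuron-type enolase, from 29.7, 33.4 and 39.4 CPM to 9.61, 11.5 and 9.63 CPM (-1.74 ± 0.13). Of 21 ion channels and transporters of the prostate, 13 were higher and 4 lower, 12 and 3 without S35, and 9 and 5 with no scaling factors. TRPM8, the cold and menthol channel, went from 4.67, 5.96 and 1.45 CPM to 89.3, 66 and 68.9 CPM (4.22 ± 0.37), with S35 lowest. KCNMA1, the BK potassium channel, went from 15, 16.2 and 19.5 CPM to 127, 154 and 153 CPM (3.1 ± 0.088), and ABCC4, an exporter of cyclic nucleotides and prostaglandins, from 185, 183 and 224 CPM to 1145, 1223 and 1232 CPM (2.61 ± 0.071). ATP1B1, the sodium pump's beta subunit, fell from 249, 277 and 275 CPM to 98.9, 88.1 and 89.8 CPM (-1.53 ± 0.068). Of 26 interferon genes 5 were higher and 8 lower, shares near the 25.7% and 25.4% of all genes, with 5 and 9 of 27 without S35 and 4 and 12 of 26 with no scaling factors. MX1 rose from 12.6, 11.3 and 8.87 CPM to 58.3, 51.3 and 58.2 CPM (2.35 ± 0.13).

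For the cell cycle genes the count of calls depended on S35 and on the fit. Of 35 DNA replication genes, 16 were called lower and none higher (median -0.53), and 33 were lower without S35 (median -0.78). Of 30 mitosis genes, 21 were lower and none higher (median -1.06), and 26 were lower without it (median -1.37). Of all genes, 25.4% were called lower, and 23.9% without S35. With S35 kept in, the replication and mitosis genes called lower were 31 and 26 with no scaling factors, 22 and 25 in DESeq2 and 10 and 12 in a fit of the 6 siCtrl libraries alone, and none was called higher in any of these. S35 was below both other vehicle libraries for 35 of the 35 replication and 29 of the 30 mitosis genes, beside 6595 of all 17893 genes tested. Set against the mean of S7 and S21, the median replication gene was at -0.86 in S35 and at -0.82, -0.65 and -0.65 in the R1881 libraries S8, S22 and S36 (log2 CPM), and the median mitosis gene at -1.19 in S35 and at -1.43, -1.20 and -1.31. The level of these 2 lists in S35 was thus close to the range of the R1881 libraries, while for ER and Golgi transport the median was -0.059 in S35 against 0.87 to 0.93. TK1, thymidine kinase, measured 118, 136 and 60.4 CPM with vehicle and 35.2, 36.3 and 35.2 CPM with R1881 (-1.56 ± 0.28, and -1.84 ± 0.12 without S35). CDC20, the activator of the anaphase-promoting complex, measured 52.3, 57.5 and 24.1 CPM with vehicle and 13.7, 18 and 15.3 CPM with R1881 (-1.5 ± 0.30, and -1.81 ± 0.11 without S35). For both, S35 lay between the other vehicle libraries and the R1881 libraries, and the groups did not overlap. RRM2, a subunit of ribonucleotide reductase, measured 99.5, 107 and 38.3 CPM with vehicle and 41, 49 and 47.3 CPM with R1881, with S35 below all R1881 libraries. It was not called with all libraries (adjusted p = 0.0818) and was called lower without S35 (-1.18 ± 0.17, adjusted p = 4.11e-04). ANLN, a cytokinesis scaffold, behaved alike in the tests (adjusted p = 0.0526 and, without S35, 1.79e-12). ANLN was among the genes picked as farthest below in S35, so its smaller value without S35 follows in part from that choice.

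**Figure D4:**
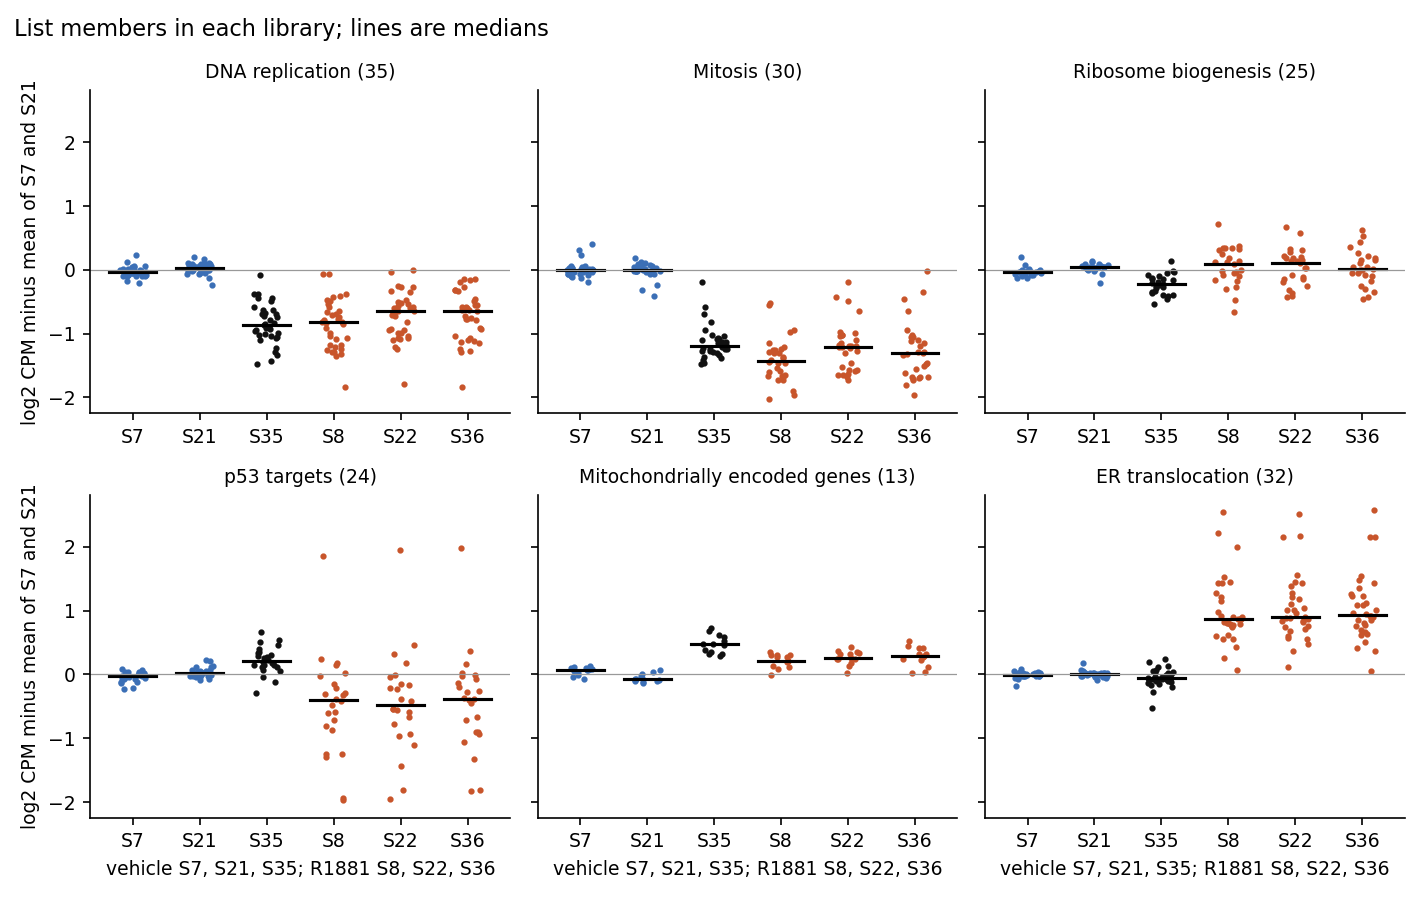
Each point is a tested member of 1 of 6 gene lists in 1 library, as log2 (CPM + 0.5) minus its mean in vehicle S7 and S21, with black lines at the median; blue is vehicle S7 and S21, black vehicle S35 and orange R1881. S35 lies near the R1881 libraries for replication and mitosis, below all 5 for ribosome biogenesis, above them for p53 targets and mitochondrially encoded genes, and with the other vehicle libraries for ER and Golgi transport.

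The promoters of 2 of these genes are shown since each holds short motifs known from cell cycle promoters. CDT1, which loads the replicative helicase, holds TTTCCCGC, an E2F site, on its reverse strand (printed GCGGGAAA, 35 to 28 bases before the start). CDC20 holds TTTGAA, the cell cycle genes homology region (printed also as its reverse complement TTCAAA), and CCAAT boxes, 100 to 96 and 55 to 51 bases before the start. Both are RefSeq GRCh38.p14 on the plus strand, chr16:88803539-88803788 and chr1:43358731-43358980, with these letters in capitals.
CDT1: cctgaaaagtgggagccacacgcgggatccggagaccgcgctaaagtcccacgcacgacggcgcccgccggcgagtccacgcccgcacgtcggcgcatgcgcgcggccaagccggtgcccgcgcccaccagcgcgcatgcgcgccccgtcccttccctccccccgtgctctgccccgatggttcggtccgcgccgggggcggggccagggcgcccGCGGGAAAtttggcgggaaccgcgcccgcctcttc
CDC20: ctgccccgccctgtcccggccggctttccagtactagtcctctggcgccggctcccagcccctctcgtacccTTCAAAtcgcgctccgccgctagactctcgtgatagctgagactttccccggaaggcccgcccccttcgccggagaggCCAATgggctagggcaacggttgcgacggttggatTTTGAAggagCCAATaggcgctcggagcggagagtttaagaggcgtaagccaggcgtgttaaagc
TTTCCCGC was found in 8 of 39 (20.5%) of the replication promoters and in 488 of 35116 (1.39%) of all promoters. TTTGAA was found in 14 of 28 (50%) of the mitosis promoters against 4677 of 35116 (13.3%) of all, and CCAAT in 23 of 28 (82.1%) against 11240 of 35116 (32%). CCAAT was not particular to the cell cycle lists. It was found in 24 of 39 (61.5%) of the replication promoters. Of the lists that rose, 27 of 39 (69.2%) of the unfolded protein and 17 of 26 (65.4%) of the cholesterol promoters held it. TTTCCCGC was also found in 3 of 26 (11.5%) of the cholesterol promoters. CDT1 measured 33.9, 35.6 and 24.6 CPM with vehicle and 19.98, 23 and 22.3 CPM with R1881 (-0.53 ± 0.11). It was called lower with and without S35.

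Not all cell cycle genes went down. Of 26 tested G1 cyclins, E2F factors and CDK inhibitors, 12 were lower and 3 higher, beside 25.4% and 25.7% of all genes, 14 and 4 without S35, and 19 and 2 with no scaling factors. CDK6, a G1 kinase, went from 1.01, 0.993 and 1.45 CPM to 4.84, 4.55 and 4.60 CPM (2.01 ± 0.28), CDC25A, a phosphatase that activates CDKs, from 19.5, 22 and 10.2 CPM to 35.8, 36.7 and 32.8 CPM (1.03 ± 0.21), and CDK2 from 33.2, 37.1 and 28.1 CPM to 39.8, 40.6 and 42.3 CPM (0.32 ± 0.088). SKP2, which marks the inhibitor p27 for degradation, fell from 34.3, 36.8 and 27.1 CPM to 20.1, 23.3 and 21.2 CPM (-0.60 ± 0.10), and CDKN1B, the gene of p27, was not called (-0.084 ± 0.062). E2F1 measured 40.3, 43.8 and 18.1 CPM with vehicle and 23.5, 23.3 and 22.6 CPM with R1881 and was called lower without S35 alone (-0.87 ± 0.11, adjusted p = 1.23e-07; with it, 0.154). MYC fell modestly, from 101, 102 and 80.1 CPM to 64.1, 76 and 74.2 CPM (-0.40 ± 0.14).

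Other lists also moved with S35. Of 24 p53 targets, 16 were lower and 1 higher, beside 25.4% and 25.7% of all genes. The counts were 15 and 2 without S35, and 20 and 1 with no scaling factors. S35 was above both other vehicle libraries for 19 of the 24, beside 6577 of all 17893 genes tested. SESN1, a stress-induced inhibitor of mTORC1, went from 203, 213 and 235 CPM to 52.9, 59.2 and 58.8 CPM (-1.93 ± 0.068), and TP53INP1 from 345, 333 and 377 CPM to 138, 126 and 135 CPM (-1.41 ± 0.061). Both falls were called with and without S35. CDKN1A, the CDK inhibitor p21, was not called (-0.32 ± 0.19) and measured 242, 235 and 378 CPM with vehicle and 244, 214 and 227 CPM with R1881, with S35 the only library set apart. TNFRSF10B, a TRAIL death receptor, was the 1 member higher with all libraries, from 126, 127 and 117 CPM to 458, 489 and 502 CPM (1.97 ± 0.060), and CCNG1, cyclin G1, was called higher only without S35 (0.28 ± 0.062). Ribosome biogenesis had 11 of 25 higher and 4 lower, 7 and 5 without S35, and the reverse lean, 2 and 9, with no scaling factors. All genes leaned that way too with no scaling factors, 2669 of 17893 higher and 7810 lower. The nucleolar genes RRP9 (0.73 ± 0.076) and GNL3 (0.35 ± 0.059) rose, and FBL, the methyltransferase fibrillarin, fell (-0.37 ± 0.071). None of the 13 mitochondrially encoded genes was called with all libraries, and 8 were higher without S35, which lay above both other vehicle libraries for all 13. MT-CO2, for example, measured 3617, 3141 and 5079 CPM with vehicle and 4179, 4359 and 4614 CPM with R1881, and was called higher only without S35 (0.37 ± 0.059). What set S35 apart was not tested.

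The same treatments were given to EV cells in the second study, and the difference of the 2 responses was tested in 1 fit of all 24 libraries, which share no control. Transfection and study are the same split and cannot be told apart. Of 18999 genes tested, 3185 (16.8%) differed, 2037 (10.7%) with a higher log2 change in siCtrl cells and 1148 (6.04%) with a lower one. Without S35 the counts were 1305 (6.65%) and 1177 (6%). With no scaling factors the lean turned, with 1090 of 2971 called genes higher and the others lower. Differences of at least 2-fold were few, 133 (0.7%) and 335 (1.76%). On the scale of the 24 libraries, KLK3 in EV cells measured 1279.8, 1297 and 1388 CPM with vehicle and 6345, 6833 and 7109 CPM with R1881, and in siCtrl cells 207, 208 and 53.5 CPM with vehicle and 7779, 8160.0 and 7985 CPM with R1881. The R1881 levels were of one order, and the vehicle levels were several-fold higher in EV cells. The difference of the log2 changes was 3.32 ± 0.46 (siCtrl minus EV, adjusted p = 8.33e-05), and 2.86 ± 0.23 without S35. KLK2 measured 79.4, 86.8 and 90.2 CPM with vehicle and 724, 774 and 823 CPM with R1881 in EV cells, and its difference was 3.21 ± 0.32 (2.74 ± 0.15 without S35). TMPRSS2 differed by 1.23 ± 0.12, FKBP5 by 1.01 ± 0.15 and WDR77 by 0.53 ± 0.11, all in the same direction.

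Secreted kallikreins and prostate secretory proteins had a median difference of 1.33 (1.06 without S35), with 8 of 14 members higher and none lower (7 and none without S35). Of 35 replication genes, 21 had a higher log2 change in siCtrl cells and none a lower one, beside 10.7% and 6.04% of all genes, and 20 and none without S35. With no scaling factors 14 of the 35 replication genes had a higher change and none a lower one. In EV cells all 35 were called lower, with a median of -1.31, against -0.53 in siCtrl cells and -0.78 there without S35. The median difference of the replication genes was 0.72, and 0.48 without S35. CDC6, which licenses replication origins, changed by -1.46 ± 0.071 in EV and -0.12 ± 0.33 in siCtrl cells, with a difference of 1.36 ± 0.33. Without S35 its change in siCtrl cells was -0.46 ± 0.12 and was called. For ribosome biogenesis 19 of 25 had a higher change in siCtrl cells and none a lower one (17 and none without S35), and for aminoacyl-tRNA synthetases 16 of 20 and none (14 and none without S35). NOP16, a nucleolar protein, changed by -0.29 ± 0.084 in EV and 0.66 ± 0.12 in siCtrl cells, with a difference of 0.97 ± 0.15. YARS1, tyrosyl-tRNA synthetase, changed by 0.16 ± 0.055 and 0.90 ± 0.068, with a difference of 0.76 ± 0.090. For ER and Golgi transport the difference was higher for 18 of 32 and lower for none, but higher for 10 and lower for 2 without S35. Mitosis had 1 of 30 higher, and none without S35. SELENBP1 fell more in siCtrl cells, by a difference of -1.13 ± 0.084, and INSIG2 likewise (-1.0 ± 0.12).

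**Figure D5:**
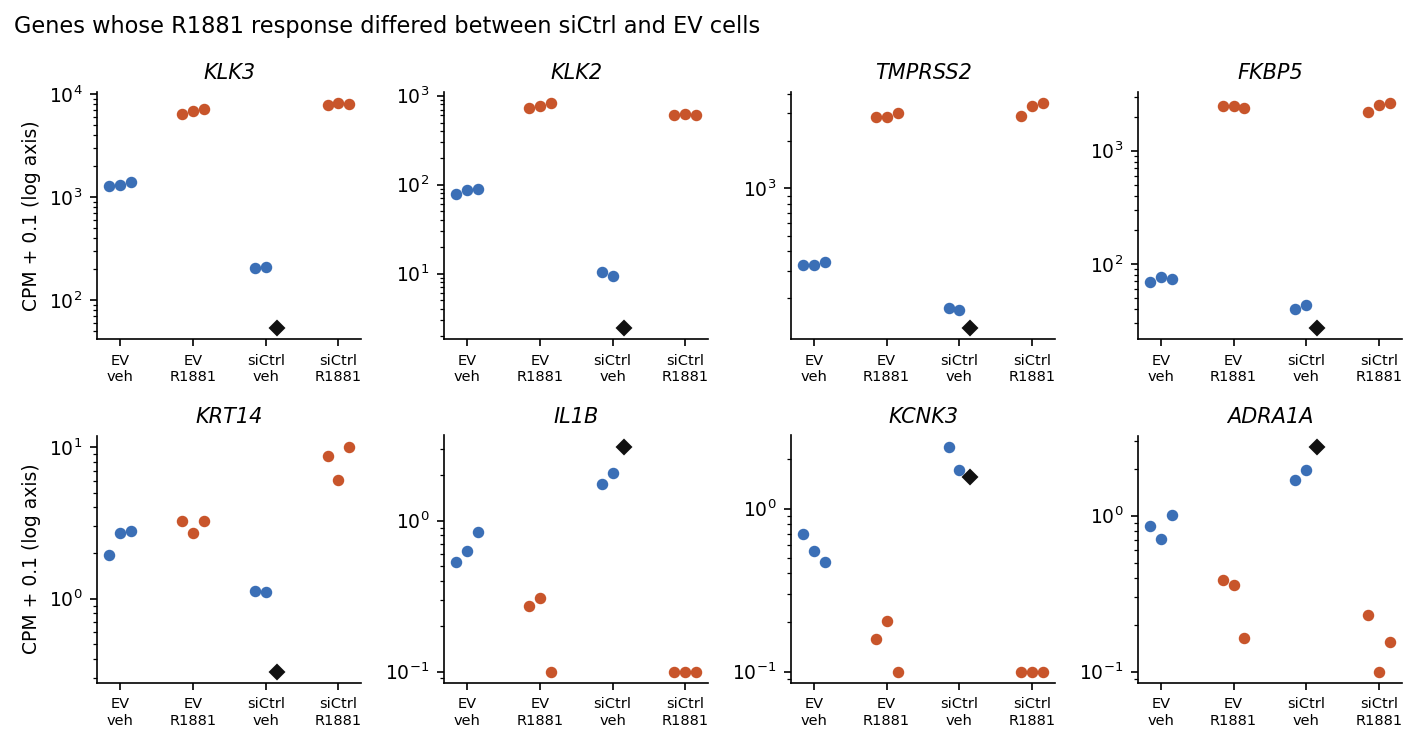
CPM + 0.1 on a log axis, on the scale of the 24 libraries, for 8 genes whose R1881 response differed between siCtrl and EV cells: blue is vehicle, black diamonds vehicle S35 of siCtrl cells and orange R1881, with 3 libraries in each of the 4 groups. For KLK3 and KLK2 the vehicle levels set the cells apart while the R1881 levels are close, and KRT14 is far higher with R1881 than with vehicle in siCtrl cells, with a difference to EV cells of 3.12 ± 0.38 on the log2 scale.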

How the data were processed

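Poly(A) RNA was sequenced from 24 LNCaP libraries. The deposited raw counts were made by the authors with bcl2fastq 2.20, STAR 2.7.9a and featureCounts of Subread 1.6.4 on GRCh38.p7, per the submitters' processing notes; not given in the sources used here were the strand setting, the annotation release and the treatment of multi-mapping reads. All 60649 features of the table name a gene, and 58381 IDs were found in GENCODE 29, the source of coordinates. Groups were taken from the sample labels. Counts were filtered (filterByExpr), scaled by TMM and tested by edgeR 4.0.16 (robust quasi-likelihood F test, R 4.3.3) in 1 fit of the 12 libraries of the siRNA study for the response and of all 24 for the difference to EV cells, with Benjamini-Hochberg adjustment at 0.05. The fold of a group with no count was set against 3 counts over the group. SE was derived from the fold and F. Only the edgeR fit of the response was tested on simulated data. These had the same spread for every gene, no deviating library and far fewer changed genes than were called here. Alternatives were other scaling, no filter, DESeq2 1.42.0, other sets of libraries, a replicate block and leaving out each library. Intervals cover counting error only.

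The members of the lists and the lists themselves were chosen with earlier results of these data known. Genes are named by rule: KLK3, KLK2, TMPRSS2, FKBP5 and WDR77; per direction the 15 largest log2 changes (at least 1 CPM in the higher group, no overlap), the 15 largest changes in mean CPM and the 10 most extreme in the difference to EV cells and in S35; and per list the 4 smallest adjusted p, the members called against the majority and those not called. Some genes that this rule names are not reported here.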

Additional observations from a re-analysis of the deposited data

Results flagged for a closer look

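The following results were singled out because the R1881 response differed between siCtrl and EV cells by a test of the difference itself (edgeR, adjusted p under 0.05, all 24 libraries). Values are log2 changes in siCtrl minus log2 changes in EV cells. Of the genes followed throughout, KLK3 differed by 3.32, KLK2 by 3.21, TMPRSS2 by 1.23, FKBP5 by 1.01 and WDR77 by 0.53.

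The other genes with the largest positive differences had few counts. TRIM49D2 differed by 4.7, RP11-244H18.1 by 4.14, RNF148 by 3.88, PGBD4P8 by 3.69, RNU6-127P by 3.42, NTNG2 by 3.36, KRT14 by 3.12 and C16orf54 by 3.06. KRT14, the best covered of them, measured 1.85, 2.60 and 2.71 CPM with vehicle and 3.15, 2.60 and 3.16 CPM with R1881 in EV cells and 1.02, 1.01 and 0.230 CPM with vehicle and 8.66, 5.97 and 9.97 CPM with R1881 in siCtrl cells. Without S35 the adjusted p was 0.101 for TRIM49D2, 0.106 for RNF148 and 0.0712 for PGBD4P8, so these were not called.

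The largest negative differences were -6.42 for IL1B, -5.56 for NBPF7, -5.27 for KCNK3, -5.16 for RP11-162D9.3, -5.05 for TMEM92, -4.37 for LRRN4, -4.27 for GALNT12, -3.25 for ENTPD8, -3.18 for HOXA11-AS and -3.18 for ADRA1A. IL1B measured 0.435, 0.527 and 0.745 CPM with vehicle and 0.172, 0.208 and 0 CPM with R1881 in EV cells and 1.64, 1.97 and 2.99 CPM with vehicle and 0, 0 and 0 CPM with R1881 in siCtrl cells. HOXA11-AS, the antisense RNA of a homeobox gene, changed by -5.05 ± 0.29 in siCtrl cells. Without S35, TMEM92 (adjusted p = 0.177) and ADRA1A (0.0738) were not called. Where a group holds no count, the fitted difference depends on the prior count and its size is not a bound. Why these genes differ was not tested, and study and transfection cannot be told apart.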

How the results depend on the processing

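With no scaling factors the R1881 response gave 2669 genes higher and 7810 lower (2824 at least 2-fold lower), and the difference to EV cells 2971 called, of which 1090 were higher and the others lower (with TMM 3185, 2037 and 1148). The direction then reversed for FKBP4 (-0.23), HSP90AB1 (-0.19), STEAP1 (-0.015), TRAPPC1 (-0.22) and DDIT4 (-0.22). Without vehicle S35, 1305 genes had a higher response in siCtrl than in EV cells, and the sign of MT-RNR2 changed to 0.30 (0.29 in a fit of the 5 remaining siCtrl libraries, an alternative chosen after seeing the data). The causes of these shifts beyond the scaling itself were not tested. Leaving out each siCtrl library in turn gave 8127 to 8856 genes called in the response, of which 4225 to 4447 higher and 3902 to 4409 lower, and leaving out each of the 12 libraries gave 2482 to 3333 called in the difference, of which 1305 to 2127 higher. The change of MT-RNR2 ranged from -0.25 to 0.30 over these fits. RLE size factors, no filter on low counts, DESeq2, the 6 siCtrl libraries alone and all 24 libraries gave 8663 to 9592 genes called in the response. For the difference, the same changes of scaling, filter and tool and a fit of the 12 libraries alone gave 2987 to 3203 called with up to 1898 higher. In a fit with the run of the sample number as a replicate block, 9163 genes were called in the response and 3556 in the difference. This block was formed from the numbers alone, and no label names it. The labels give no pairing, so the numbers were not taken to pair the samples. Deviations from the group means correlated at 0.088 for S7 and S8, 0.16 for S21 and S22 and 0.040 for S35 and S36. Each sample correlated best with its own number, and such low values cannot exclude a pairing. A gene at 0 in a library could be at up to 0.135 to 0.178 CPM there, depending on depth.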

Other observations

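Iron handling and the STEAP metalloreductases had no common direction apart from the rise of STEAP4, with 4 of 9 tested members higher and 2 lower, and 3 and 4 with no scaling factors. Among the markers of other cell types, the 4 basal markers summed to 31.8 to 36.1 CPM with vehicle and 43.1 to 51.2 CPM with R1881, the 7 fibroblast and mesenchymal markers to 29.3 to 34.4 and 11.8 to 13.3 CPM, the 3 endothelial markers to 6.15 to 14.2 and 4.01 to 6.63 CPM, and the 5 neuroendocrine markers to 32.1 to 43.2 and 13.4 to 16.8 CPM. Their part in any result was not tested.

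Of the unfolded protein response genes, 16 of 28 had a higher log2 change in siCtrl than in EV cells and 1 a lower one (15 and 1 without S35), beside 10.7% and 6.04% of all genes (6.65% and 6% without S35). Of the amino acid transporters, 9 of 20 had a higher change and 1 a lower one, 10 and 3 without S35. SLC1A5 differed by 1.18 ± 0.10 and SLC7A11 by 1.16 ± 0.20, the latter with a change of -0.31 ± 0.068 in EV and 0.84 ± 0.17 in siCtrl cells.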
